A study of Homo sapiens with 2 samples.

Results

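The genes described here are those of the proteins of the cytoplasmic ribosome, taken from the matrices by symbol: RPL or RPS followed by a number, with RPLP0, RPLP1, RPLP2 and RPSA. The rule found 84 of 32738 genes, 32 of the small subunit and 52 of the large subunit, and it used no measured value. Y-linked members of the family and the RPS6K kinases were among the genes left out. Of the 84 genes, 7 are paralogues whose symbol ends in L or L1, here called the paralogues, and the remaining genes are called core members. FAU, which encodes a ribosomal protein fused to a ubiquitin-like protein, and RPL36AL do not match the symbol rule and are given beside the members.

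The series profiled Nalm-6, a cell line from a human acute lymphoblastic leukemia of B-cell precursors, cell by cell. The line carried a construct under doxycycline control (Tet-On). In 1 library the construct encoded the ETV6-RUNX1 fusion, and in the other it encoded luciferase (LUC control). Both cultures received 500 ng/ml doxycycline for 24 h, and dead cells were depleted with beads before droplet capture on the 10X system. Each transcript was counted by a unique molecular identifier (UMI). The line comes from 1 patient's leukemia, and both arms received doxycycline, so an uninduced state was not compared. There was 1 library for each construct, so every difference between them lacks a replicate check and no test was made. The 95% intervals given cover counting error only, since cells of a library are not replicates.

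A ribosome carries 1 copy of nearly every ribosomal protein, apart from the stalk proteins RPLP1 and RPLP2, which are present in several copies and recruit translation factors. Messenger RNAs of ribosomal proteins are abundant and stable, and most begin with a C followed by a run of pyrimidines at the 5′ end, the 5′ TOP motif, through which mTOR signalling and LARP1 adjust their translation together. Some members have a paralogue with its own control: RPS27L is a p53 target, and RPL22L1 is known to be held down by the RPL22 protein.

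The start of transcription shows this shared control element, and it also separates some of the paralogues. A start was taken to carry the TOP pattern when the first transcribed base was C and the next 4 were each C or T, read on the strand of the gene only. RefSeq starts (GRCh38.p14) were found for 67 of the 84 members, and 47 of these (70.1%) had at least 1 such start. The same held for 5.14% of all 27305 genes in the table, for 8.04% of 4576 other genes measured here, for 46 of 62 core members and for 1 of 5 paralogues. The windows below run from 20 bases before the start to the first 20 transcribed bases, on the strand of the gene, with the unbroken C and T run at the start in capitals. They show some of the most abundant members and the paralogues on which the results turn, those of RPL22, RPS27 and RPL26 beside their core partner. Coordinates are those of GRCh38.p14, not of the build hg19 used for the counts.
RPLP1 (chr15:69452798-69452837, + strand): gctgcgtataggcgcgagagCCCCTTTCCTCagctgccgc
RPS18 (chr6:33272055-33272094, + strand): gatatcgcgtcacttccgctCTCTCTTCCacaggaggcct
RPS12 (chr6:132814549-132814588, + strand): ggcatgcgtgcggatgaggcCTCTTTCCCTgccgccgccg
RPS19 (chr19:41860235-41860274, + strand): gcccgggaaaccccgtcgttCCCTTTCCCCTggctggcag
RPL22 (chr1:6199576-6199615, - strand): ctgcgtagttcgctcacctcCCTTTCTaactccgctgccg
RPL22L1 (chr3:170870176-170870215, - strand): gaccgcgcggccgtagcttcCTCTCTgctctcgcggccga
RPS27 (chr1:153990742-153990781, + strand): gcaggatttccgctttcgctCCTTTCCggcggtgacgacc
RPS27L (chr15:63157458-63157497, - strand): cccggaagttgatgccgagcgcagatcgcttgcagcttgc
RPL26 (chr17:8383174-8383213, - strand): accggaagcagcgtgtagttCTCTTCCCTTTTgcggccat
RPL26L1 (chr5:172958709-172958748, + strand): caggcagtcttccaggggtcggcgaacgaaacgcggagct
RPL7L1 (chr6:42879596-42879635, + strand): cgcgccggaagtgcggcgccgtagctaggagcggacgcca
RPLP1 has a run of 11 bases, RPL22 of 7 and RPL22L1 of 6, whereas the windows of RPS27L, RPL26L1 and RPL7L1 have no such run at the start. RPS19 and RPL26L1 each have 2 starts in the table, of which 1 is shown. A match is a description of the annotated start, not a measured start in these cells.

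A barcode counted as a kept cell when it held 1000 or more genes and no more than 10% of its UMIs came from genes of the mitochondrial genome (MT-). The ETV6-RUNX1 library held 2267 such cells with 43941536 UMIs, and the control 1870 cells with 42762188 UMIs, at medians of 19219 and 22535.5 UMIs per cell. The libraries shared 16 barcode sequences, 7 of them among kept cells. ETV6, part of the construct, was at 10.2 and 6.95 CPM (UMIs scaled to a library total of 1000000), and RUNX1 at 33.8 and 34.0. All 8 B-cell precursor markers were measured, with a summed level of 3123 CPM in the ETV6-RUNX1 library and 4155 CPM in the control. IGLL1, a surrogate light chain gene, was the marker past 1.5-fold, at 1126 against 1861 CPM. The 6 erythroid and megakaryocyte markers were at 0 in both libraries, T and NK markers summed to 4.69 and 6.27 CPM, myeloid markers to 13.2 and 12.1 CPM (mostly CST3, with S100A8 and S100A9 at 0), and mature B and plasma markers to 10.9 and 7.23 CPM.

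Ribosomal protein messages made up a large part of each library's UMIs. They held 43.4% of UMIs (95% exact interval 43.43 to 43.459) in the ETV6-RUNX1 library and 41.9% (41.898 to 41.927) in the control, a gap of 1.53 percentage points. Small subunit genes held 18.6% and 17.9%, and large subunit genes 24.9% and 24.0%, so both subunits were higher in the ETV6-RUNX1 library. MT- genes held 4.54% and 4.41%. Per cell, the share ran from 23.6% to 62.7% in the ETV6-RUNX1 library, with a median of 43.7%, and from 18.4% to 57.4% in the control, with a median of 42.1%. The cells of the libraries thus overlapped across nearly the whole range. The standard deviation between cells was 4.16 and 3.798 percentage points once every cell had been thinned at random to 8700 UMIs, against 0.532 and 0.529 points from counting alone. Thinning left out 224 and 84 shallower cells.

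Individual members were far from equal. Of the 84 genes, 82 were measured, meaning 10 CPM or more in at least 1 library; RPL10L, a testis paralogue, had 2 and 1 UMIs and RPL3L, a paralogue of striated muscle, had 1 and 0. A UMI is counted once per captured transcript, so these levels are not scaled by transcript length. The median measured member was at 5080 CPM in the ETV6-RUNX1 library and 4951 CPM in the control, against 28.9 and 29.7 CPM over all 5954 measured genes. Members were 73 of the 100 most abundant genes in each library.

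The highest level belonged to RPLP1, at 16392 CPM in the ETV6-RUNX1 library and 15097 CPM in the control. RPLP1 and its partner RPLP2 (8580 and 8196 CPM) stood well above RPLP0, the protein that anchors them to the large subunit (3826 and 3642 CPM). The next levels were those of RPS18 (14245 and 13387 CPM) and RPS2 (12475 and 12014 CPM) of the small subunit, and of RPL41, which encodes a very short basic peptide (12389 and 12003 CPM). RPS12 followed at 12233 and 11401 CPM, and RPS19, a gene often mutated in Diamond-Blackfan anemia, at 10073 and 9513 CPM. The 10 highest members together held 11.2% and 10.6% of all UMIs. RPS27A, which encodes ubiquitin fused to a small subunit protein, was at 7264 and 7011 CPM, and RPSA, the small subunit protein once named the laminin receptor, at 3190 and 3216 CPM. FAU was at 2535 and 2423 CPM, inside the range of the core members.

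Toward the other end lay the paralogues and a few core members. RPL22L1 was the most abundant paralogue, at 941.0 and 1061 CPM, below RPL22 itself at 2598 and 2576 CPM. RPS27L was at 190.0 and 203.7 CPM, against 6204 and 6353 CPM for RPS27. RPL26L1 was at 129.5 and 140.4 CPM, RPL7L1 at 97.9 and 106 CPM, and RPL39L at 58.4 and 60.5 CPM. The paralogues together held 0.142% and 0.157% of UMIs. Among core members, RPL17 lay far below most of the others (199.9 and 254.9 CPM). RPL17 overlaps the read-through gene RPL17-C18orf32, at 0.410 and 0.351 CPM. The sources used here do not say how reads shared by such genes were counted, so the level of RPL17 is uncertain.

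**Figure D1:**
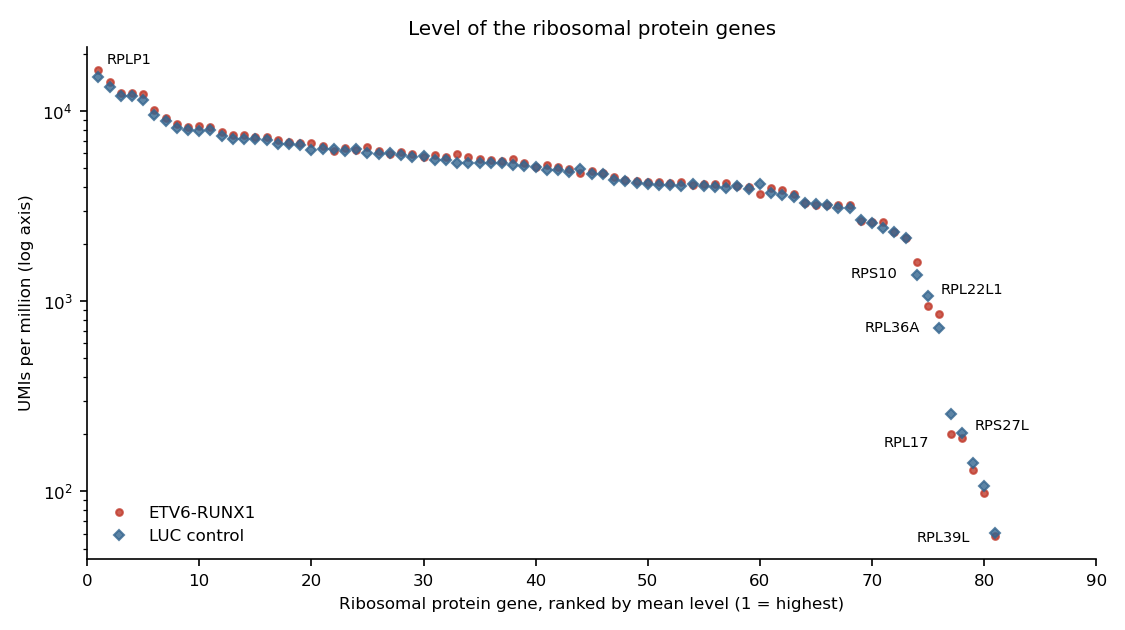
Level of the 81 ribosomal protein genes at a mean of 50 CPM or more (log axis), ranked by the mean of both libraries, with circles for the ETV6-RUNX1 library and diamonds for the control. The levels fall slowly from RPLP1 at 16392 and 15097 CPM to RPS10 at 1614 and 1378 CPM, and then steeply through the paralogues and RPL17.

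The order of the levels was almost the same in both libraries. Across the 82 measured members the Pearson correlation of log2 CPM between the libraries was 0.999, given as a description over genes of the same line, and no member moved by more than 10 ranks. The small differences that remained were mostly in 1 direction. The ETV6-RUNX1 library had the higher level, a log2 ratio over control above 0, for 61 of 82 measured members, where 36.2% of all 5954 measured genes lay above 0. The median log2 ratio was 0.05 over the members and -0.04 over all measured genes. It was 0.05 over 31 core members of the small subunit (25 above 0) and 0.05 over 46 of the large subunit (36 above 0). Scaling moved this count: with TMM, or with members and MT- genes left out of the totals, 73 of the 82 members were above 0, beside 49.1% and 50.8% of all measured genes. In both libraries the ribosomal protein genes are a large part of the total, so a higher share of them lowers the ratio of all other genes on this scale.

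No member differed by 1.5-fold or more in either direction, where 0.185% of all measured genes were at least 1.5-fold higher in the ETV6-RUNX1 library and 0.655% at least 1.5-fold lower. The highest ratios were those of RPL36A, at 860 against 723 CPM (log2 ratio 0.25, 0.23 to 0.27), and RPS10, at 1614 against 1378 CPM (0.23, 0.21 to 0.24). RPL26, a large subunit protein that is known to bind p53 messenger RNA, followed at 5928 against 5346 CPM (0.15, 0.14 to 0.16). RPS14, RPLP1 and RPS20 had log2 ratios of 0.12, 0.12 and 0.11. The other members that stood out lay on the low side.

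RPL17, a large subunit protein, was at 199.9 CPM in the ETV6-RUNX1 library and 254.9 CPM in the control (log2 ratio -0.35, -0.39 to -0.31), and it was -0.35 with the read-through gene added. RPS29, a short zinc-binding protein of the small subunit, was at 3668 against 4117 CPM (-0.17, -0.18 to -0.16), and RPL22L1 had a log2 ratio of -0.17 (-0.19 to -0.15). The remaining paralogues were also below 0: RPL7L1 at -0.12, RPL26L1 at -0.12, RPS27L at -0.10 and RPL39L at -0.05 with an interval that holds 0 (-0.13 to 0.03). All 5 measured paralogues thus lay below 0, as did 63.8% of all measured genes, while 61 of 77 core members lay above 0.

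RPL17, RPL36A and RPS10, far from 0 among the members, each share sequence with another annotated gene. Besides RPL17, RPL36A lies within RPL36A-HNRNPH2, which had 0 UMIs in both libraries, and RPS10 within RPS10-NUDT3, which had 1 and 4 UMIs. RPL36AL, the copy of RPL36A at another locus, was at 880 and 918 CPM (log2 ratio -0.06, -0.08 to -0.04), opposite in sign to RPL36A. The part of shared reads in these ratios was not tested. The ratios held their sign in cells called G1, S and G2/M alike: for RPL17 they were -0.35, -0.40 and -0.36, and for RPL36A 0.25, 0.33 and 0.22. MYC, which encodes a regulator of ribosome production, was at 104 and 135 CPM (log2 ratio -0.38, -0.43 to -0.32).

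The share of UMIs that went to ribosomal protein genes differed by called cell-cycle phase, in the same order in both libraries. Phases were called from S and G2/M gene scores, which contain no ribosomal protein gene, on cells thinned to 8700 UMIs. In the ETV6-RUNX1 library the share was 46.7% in 268 cells called G1, 43.96% in 870 called S and 42.6% in 905 called G2/M. In the control it was 45.2% in 179 cells called G1, 42.2% in 801 called S and 41.1% in 806 called G2/M. G1 stood above G2/M by 4.09 percentage points in each library, and the ETV6-RUNX1 library stood above the control by 1.47 points in G1, 1.72 in S and 1.47 in G2/M. The gap between libraries was thus present within each phase, and it was smaller than the step from G1 to G2/M. Per cell the phases overlapped: in the ETV6-RUNX1 library the middle 90% of cells ran from 40.3% to 53.7% in G1 and from 35.5% to 48.6% in G2/M.

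In absolute UMIs the order was the reverse. Before thinning, the median ribosomal protein UMIs per cell were 7524 in G1, 8484 in S and 9592 in G2/M with ETV6-RUNX1, and 8062, 9100 and 10672.5 in the control. The median total UMIs were 16007.5, 19312 and 22425, and 17938, 21669 and 25608.5. Cells called G2/M therefore held more ribosomal protein transcripts than cells called G1, but their other transcripts were higher by a larger factor. The ratio of small to large subunit UMIs stayed between 0.742 and 0.749 in all phases of both libraries.

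Nearly all members took part in this phase order. Between cells called G1 and G2/M, 76 of 82 measured members had a log2 ratio above 0 in both libraries, compared with 21.8% of all measured genes. Between G2/M and S, 64 of 82 were below 0 in both libraries, compared with 27.4%. Most of these ratios were small. The lowest G2/M over S log2 ratios were those of RPL14 (-0.12 and -0.11 in the ETV6-RUNX1 and control libraries), RPS27A (-0.11 and -0.10), RPL31 (-0.10 and -0.10), RPL8 (-0.10 and -0.09) and RPS10 (-0.10 and -0.08). The highest in both libraries were those of RPL7L1 (0.11 and 0.08), RPS27L (0.05 and 0.11), RPL41 (0.01 and 0.05) and RPL13 (0.03 and 0.03), whereas RPL26L1 (0.08 and -0.01) differed in sign between libraries. The intervals of RPL7L1, RPS27L and RPL26L1 held 0 in both libraries, and that of RPL41 held 0 with ETV6-RUNX1. Those of RPL13 lay above 0 in both.

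Both members with the largest phase ratios were paralogues, and they lay in opposite directions. RPS27L was at 268 CPM in G1, 169 in S and 176 in G2/M with ETV6-RUNX1, and at 293, 186 and 200 CPM in the control. Its log2 ratio of G1 over S was 0.67 (0.53 to 0.81) and 0.65 (0.50 to 0.81), against a median of 0.09 and 0.11 over the measured members. RPL39L, a paralogue best known from the testis, was at 33.9, 60.6 and 62.2 CPM, and at 37.9, 63.7 and 63.6 CPM. Its log2 ratio of G1 over S was -0.84 (-1.20 to -0.49) and -0.75 (-1.17 to -0.36). The core member with the largest ratio, RPL31, was at 0.20 and 0.21.

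The share differed less with cell depth than with phase. Across 4 equal groups of cells by total UMIs, from the shallowest to the deepest, it was 44.1%, 44.3%, 43.8% and 42.5% in the ETV6-RUNX1 library and 42.2%, 42.1%, 42.2% and 41.5% in the control. The deepest group lay below the shallowest by 1.56 and 0.674 percentage points. With cells grouped by their UMIs outside the members, that difference was -3.29 and -2.58 percentage points. Those UMIs are part of the denominator of the share, so this grouping by itself tends to lower the share of the deepest group. Within cells called G1 or G2/M of the control the sign was opposite, with the deepest group higher by 1.12 and 0.417 points, so no single depth order held within phases. Across thinned cells the Pearson correlation of the share with the MT- share was -0.00144 (2043 cells) and -0.0264 (1786 cells), and with the G2/M score -0.41 and -0.40.

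Genes outside the ribosome that went with a high share were then described. Each thinned cell's UMIs were split at random into 2 equal parts; cells were ranked on the ribosomal protein share of one part and placed in 4 equal groups, and the other part was read. Between the lowest and the highest group the share in the part that was read went from 38.5% to 48.8% with ETV6-RUNX1, while in the control it went from 37.3% to 46.6%. Cells called G1 were 3.72% of the lowest and 26.8% of the highest group with ETV6-RUNX1, and 2.68% and 22.4% in the control. The median UMIs before thinning were 21240 and 18261, and 22919 and 22437, and the median MT- share was 4.43% and 4.55%, and 4.39% and 4.34%. Levels of other genes are given as CPM of the UMIs outside ribosomal protein and MT- genes, for 3217 genes at 50 CPM or more in the highest or lowest group of each library.

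Of these 3217 genes, 86 were at least 1.5-fold lower in high-share cells of both libraries (2.67%) and 24 at least 1.5-fold higher (0.746%). Of 35 measured genes on the G2/M list 22 were among the lower ones and none was among the higher ones. Among the 3217 genes the lowest named were mitotic genes: CCNB2 (log2 ratio -1.79 and -1.29 in the ETV6-RUNX1 and control libraries), SPC25 (-1.40 and -1.64), CCNB1 (-1.56 and -1.41), SGOL2 (-1.49 and -1.21), NUSAP1 (-1.28 and -1.27), TUBB4B (-1.47 and -1.07), PLK1 (-1.25 and -1.22) and UBE2C (-1.18 and -1.24). TFDP1, below the 50 CPM floor in the ETV6-RUNX1 library and so outside these genes, was lower, at -2.95 and -1.7. It rested on few UMIs (5 against 47, and 23 against 89). Those on the high side were ID4, an inhibitor of helix-loop-helix factors (1.19 and 1.75), GNG11, a G-protein subunit (0.89 and 1.80), RP11-304L19.5 (1.00 and 0.92), the receptor gene PDGFRA (0.95 and 0.82), SNORA76 (0.84 and 0.90), CHST2 (1.09 and 0.63), ZNF608 (0.62 and 1.01) and ST6GAL1 (0.74 and 0.84). Restricted to cells called S, GNG11 was at 0.55 and 1.59, ID4 at 1.01 and 1.30 and PDGFRA at 0.95 and 0.49, whereas the intervals of ST6GAL1 (0.49 and 1.01) held 0. On the low side TUBB4B was at -1.19 and -0.80 and UBE2C at -0.72 and -0.85 in the same cells, with intervals below 0, whereas those of CCNB2 (-0.55 and -0.64) held 0. The intervals of the other named mitotic genes, SPC25, CCNB1, SGOL2, NUSAP1 and PLK1, held 0 in the ETV6-RUNX1 library within S. On the high side, RP11-304L19.5, SNORA76 and CHST2 had intervals above 0 in both libraries, whereas that of ZNF608 held 0 in the control. Within S every named mitotic gene kept a log2 ratio below 0 in both libraries, but most were not clear of 0 in both. Counts there were low, as for PLK1 (7 against 9 UMIs with ETV6-RUNX1 and 5 against 9 in the control). Phases were called from G2/M scores of the same thinned cells, so keeping only cells called S itself narrows this contrast. The reading within S therefore cannot show that the contrast was absent.

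The other parts of the translation machinery did not form 1 block with the ribosomal proteins. Translation factors and related genes with TOP messages leaned the same way: of 22 measured genes on that list, which includes FAU and RPL36AL, 18 were above 0 in both libraries, compared with 29.5% of all 3217 genes, and 3 were at least 1.5-fold higher, with medians of 0.45 and 0.42. EEF1A1, the elongation factor that delivers aminoacyl-tRNA, was at 18574 against 11482 CPM in the ETV6-RUNX1 library (log2 ratio 0.69) and at 17821 against 11588 CPM in the control (0.62). Genes of ribosome biogenesis leaned the other way, with 26 of 34 below 0 in both libraries, compared with 40.5% of all 3217 genes, 2 above 0 and medians of -0.17 and -0.19. Mitochondrial ribosomal proteins had 15 of 69 above 0 and 26 below 0 in both libraries, near the shares over all genes, with medians of -0.10 and 0.01. Over all 3217 genes the medians were -0.05 and -0.04. Cells called G1 were more frequent in the high-share group. On the scale of all UMIs, G1 over G2/M medians were 0.112 and 0.108 for the translation factors. They were -0.149 and -0.115 for ribosome biogenesis, where all measured genes had -0.107 and -0.119. The part of phase in these list contrasts was not tested. MYC gave values of opposite sign, 0.23 and -0.12, with both intervals holding 0.

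Members also differed in how far they varied from cell to cell. The spread was measured in thinned cells as the coefficient of variation (CV) left after the part from counting was taken out. Over the 74 core members at 1000 CPM or more, its median was 0.126 in the ETV6-RUNX1 library and 0.123 in the control, with ranges of 0.0924 to 0.187 and 0.0748 to 0.189. Other nuclear genes at 1000 CPM or more had medians of 0.267 (53 genes) and 0.239 (56 genes). The core members thus had a lower median spread than these other genes. Levels were not matched above 1000 CPM, and some other genes, such as BTF3 (0.121 and 0.147) and GNB2L1 (0.146 and 0.138), lay within the core range. The Pearson correlation of these core members with the sum of the other members had a median of 0.45 and 0.44, and was highest for RPS18 (0.71 and 0.68).

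RPL22L1 had the largest variance over mean of all members, 5.49 and 5.16, followed, on the mean of both libraries, by the abundant RPLP1 (3.97 and 3.56), RPS19 (3.52 and 3.35), RPS2 (3.58 and 3.21) and RPS12 (3.30 and 3.26). As a CV beyond counting, RPS27L was at 0.78 and 0.77, RPL22L1 at 0.74 and 0.66, RPL39L at 0.55 and 0.49, RPL7L1 at 0.33 and 0.27, and RPL26L1 at 0.20 and 0.19. RPS27L, RPL22L1, RPL39L and RPL7L1 thus lay above every core member, whereas RPL26L1 lay near core members such as RPL12 (0.187 and 0.189). Levels were not matched in this comparison, and the paralogues had fewer UMIs per cell than most core members. The paralogues' correlation with the other members was near 0 or negative, from -0.11 to 0.04 in the ETV6-RUNX1 library and from -0.20 to 0.06 in the control, with RPL22L1 lowest in the control (-0.20) and RPL7L1 lowest with ETV6-RUNX1 (-0.11). Among abundant members RPLP2 was loosely tied to the rest (0.27 and 0.22), compared with 0.60 and 0.50 for its partner RPLP1. This was not particular to RPLP2, since RPL35 (0.215 and 0.213) and RPS26 (0.169 and 0.196) lay lower still.

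**Figure D2:**
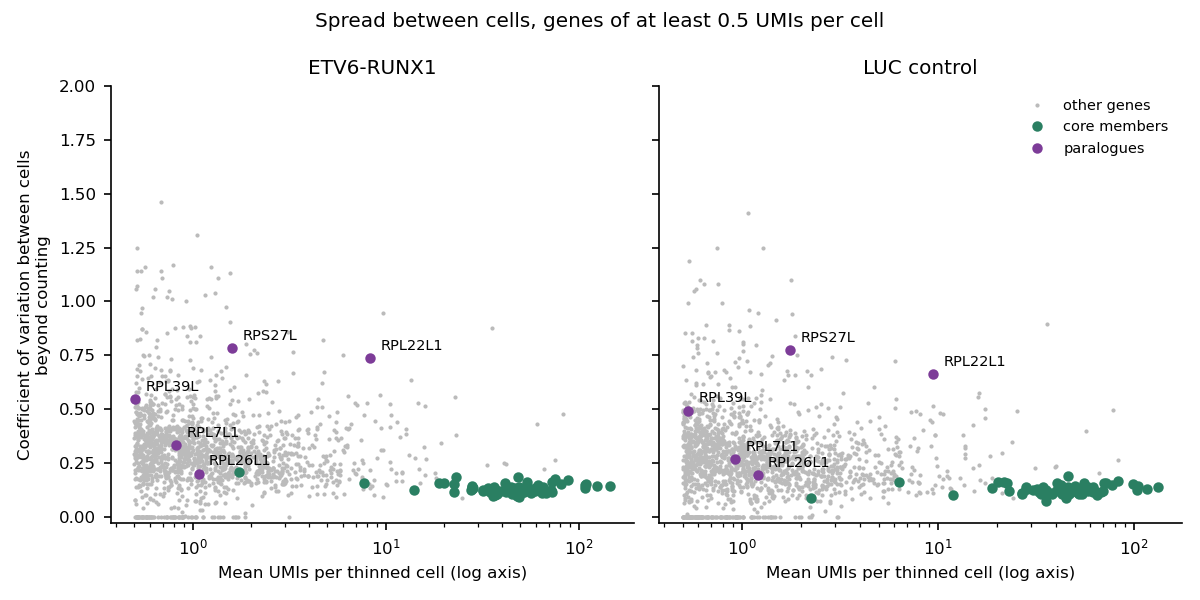
Coefficient of variation between cells beyond counting against mean UMIs per thinned cell (log axis), for genes with at least 0.5 UMIs per cell in each library; grey points are other genes, green points core members and purple points paralogues. Core members form a low band around 0.126 and 0.123, while RPS27L and RPL22L1 lie between 0.66 and 0.79.

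RPL22 and RPL22L1 ran opposite to each other across cells. In thinned cells RPL22L1 had a median of 6 UMIs with ETV6-RUNX1 and 7 in the control, with the 5th to 95th percentile from 1 to 22 and from 2 to 23. RPL22 had a median of 22 UMIs in both. Their Pearson correlation was -0.36 over 2043 cells and -0.43 over 1786 cells, the lowest of RPL22L1 with any measured gene on the mean of both libraries. Among the 2701 pairs of core members at 1000 CPM or more the correlation had a median of 0.207 and 0.192 and was never below -0.0264 and -0.0457. In cells with 0 to 2 RPL22L1 UMIs, RPL22 had a mean of 24.9 UMIs (24.4 to 25.4) in the ETV6-RUNX1 library and of 25.5 (24.8 to 26.2) in the control. In cells with 15 or more RPL22L1 UMIs it was 18.8 (18.3 to 19.2) and 18.2 (17.8 to 18.6).

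The step was not shared by every member, and all cells had equal UMIs. RPS19 was at 93.5 and 80.3 UMIs in the lowest and highest of these groups with ETV6-RUNX1 and at 88.7 and 74.4 in the control. RPL4, a large subunit protein, went the other way, at 17.9 and 20.8, and 18.1 and 19.9. The share of all members other than RPL22 and RPL22L1 was 44% and 42.7%, and 42.3% and 40.3%. Cells called G2/M were 42.0% and 38.2% of these groups with ETV6-RUNX1, and 47.4% and 39.8% in the control, while cells called S were 42.5% and 44.8%, and 40.7% and 47.9%. Phase thus moved with the groups, and its part was not tested. Cells with 15 or more RPL22L1 UMIs were 17.6% of the ETV6-RUNX1 library and 22.9% of the control.

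The gene outside the ribosome with the highest correlation to RPL22L1 on that mean was TFDP1, the dimerization partner of E2F factors (0.24 and 0.31), a gene singled out after its values were seen. Cells with at least 1 TFDP1 UMI after thinning were 147 of the ETV6-RUNX1 library (7.20%) and 257 of the control (14.4%). Their mean RPL22L1 count was 14.5 against 7.80 UMIs in the other cells with ETV6-RUNX1, and 15.1 against 8.55 in the control. These counts restate the correlation by which TFDP1 was picked and are not a separate result. Their ribosomal protein share was lower, at 41.5% against 43.9%, and 40.1% against 42.4%. Of the 82 measured members 70 were below 0 in both libraries in cells with over cells without a TFDP1 UMI, compared with 25.8% of all measured genes. The cells of this kind were thus marked by a lower share across most members, with RPL22L1, by which TFDP1 was picked, on the other side. The share of the other members was also lower in the highest RPL22L1 group, so the lower share here is not a separate result either.

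In cells with over cells without a TFDP1 UMI, RPL22 had log2 ratios of -0.27 and -0.28, RPS19 of -0.23 and -0.22 and RPS12 of -0.18 and -0.19. These members had the lowest correlations with RPL22L1 on the mean of both libraries. Their values therefore overlap with the way TFDP1 was picked. The members above 0 in both libraries were led by RPL22L1 (0.90 and 0.82) and RPL7L1, a nucleolar relative of RPL7 (0.36 and 0.19, the second with an interval of -0.0034 to 0.38). RPLP2 was at 90.1 against 74.5 UMIs with ETV6-RUNX1 but at 74.1 against 71.5 in the control, log2 ratios of 0.27 (0.25 to 0.30) and 0.05 (0.03 to 0.07); the difference between libraries was not tested. Cells called G2/M were 37.4% against 44.8% with ETV6-RUNX1 and 41.2% against 45.8% in the control, and cells called S 47.6% against 42.2%, and 48.2% against 44.3%; the part of phase was not tested. Between libraries, in cells without any TFDP1 UMI before thinning (1990 and 1425 cells), the log2 ratio of RPL22L1 was -0.08, compared with -0.17 in all kept cells, and 60 of 82 members were above 0.

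RPS27L varied with a set of genes that was not wholly separate from that of RPL22L1. Its lowest correlation on the mean of both libraries was with RPL22L1 itself (-0.109 and -0.127). RPS19, among the lowest for RPL22L1 (-0.229 and -0.295), was among the highest for RPS27L. The highest correlation of RPS27L on that mean was with CDKN1A, the p21 cell-cycle inhibitor and a p53 target (0.25 and 0.25). RPS19 (0.24 and 0.22), PHPT1 (0.21 and 0.19) and the p53 targets ZMAT3 (0.17 and 0.18), FDXR (0.15 and 0.20) and BAX (0.16 and 0.13) followed; all these are weak values in sparse counts. In cells with 0, 1 and 2 or more CDKN1A UMIs, RPS27L had means of 1.45, 1.62 and 3.09 UMIs with ETV6-RUNX1 and 1.57, 2.02 and 3.07 in the control. RPS27, its core partner, was nearly level over the same groups, at 53.9, 54.6 and 57.6, and at 55.6, 55.0 and 57.0. Cells called G1 were 11.0%, 15.4% and 27.4% of these groups with ETV6-RUNX1, and 9.50%, 8.71% and 18.2% in the control, so phase moved with them; its part was not tested. The group with 2 or more CDKN1A UMIs held 153 and 137 cells.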

How the data were processed

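The authors deposited raw UMI counts per gene and barcode, 1 matrix per library, made with Cell Ranger 3.0.2 on hg19 per the submitters' processing notes. The members, gene lists and alternatives were chosen with earlier results of these data known. UMIs were summed over kept cells and given as CPM. Shares have exact (Clopper-Pearson) and ratios exact Poisson 95% intervals, with UMIs taken as independent. Thinning drew 8700 UMIs per cell without replacement (seed 1), and phases were called with scanpy 1.11.5 (40 S and 54 G2/M genes). Doublets were left in; Scrublet called 14 and 16 kept cells (0.618% and 0.856%). TMM factors came from edgeR 4.0.16, and no test was made with it.

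Named members were the 6 highest and 6 lowest by level and by ratio, all paralogues, up to 5 at each end of the G2/M over S ratio, the 5 highest by variance over mean, RPLP0, RPLP1, RPLP2, RPSA and RPS27A. Up to 8 other genes were named on each side of the high-share contrast, and Y-linked genes were not named. Some genes that these rules would name are not reported here. The floor of 50 CPM there, the groups by RPL22L1, TFDP1 and CDKN1A and the members named for them were chosen after values were seen. The computations were tested on simulated data. Starts came from a RefSeq table of GRCh38.p14.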

Additional observations from a re-analysis of the deposited data

How the results depend on the processing

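With 1 library per construct, neither construct's values can be checked against a replicate. No paired analysis was possible because each group has 1 library. Both cell-cycle calls and shares come from the same cells, and copies of a gene can share reads. The ribosomal protein share, 43.4% and 41.9% (ETV6-RUNX1 and control), was 43.2% and 41.6% in all deposited barcodes, 43.7% and 42.0% with cells weighted equally, and 43.7% and 42.0% in thinned cells. It was 45.5% and 43.8% without MT- UMIs in the denominator, 44.1% and 42.5% with FAU, RPL36AL and another gene outside the symbol rule counted in, and 43.3% and 41.8% without the paralogues. With at least 2000 genes and at most 7% MT- UMIs it was 43.4% with ETV6-RUNX1. The median log2 ratio of the members, 0.05 as reported, was 0.0881 with TMM, 0.0878 with median-of-ratios and 0.0939 when totals left out members and MT- genes. It was 0.035 in cells without a TFDP1 UMI, an alternative chosen after seeing the data. At a log2 size of 0.32, the smallest tried, 2 members, RPL17 among them, differed; at 1.5-fold none did under any alternative run. The step from G1 to G2/M, 4.09 points in each library, was 3.97 and 4.25 points with phases called on unthinned cells, 4.43 and 4.41 without MT- UMIs, and 3.83 and 3.92 with the stricter cell filter. The deepest minus the shallowest group, -1.56 and -0.674 points, was -1.67 and -0.763 without MT- UMIs. With groups by UMIs outside the members, which are coupled to the share through its denominator, the difference was -3.29 and -2.58. In the groups by total UMIs it was also read by phase. Within called G1, S and G2/M it was -0.459, -1.45 and -0.567 with ETV6-RUNX1, and 1.12, -0.313 and 0.417 in the control, where G1 and G2/M have the opposite sign; the cause was not tested.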

Other observations

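Barcodes left out for a high MT- share held relatively few ribosomal protein messages. Of their UMIs outside MT- genes, 33.7% and 31.8% (ETV6-RUNX1 and control) came from ribosomal protein genes in barcodes with over 10% to 50% MT- UMIs (62 and 87 barcodes), and 20.1% and 25.4% in those with over 50% (157 and 205 barcodes). Kept cells had 45.5% and 43.8%. The median UMIs of these barcodes were 2343 and 2261, and 842 and 919, and the per-barcode medians of the share above 50% MT- were 26.7% and 40.5%, so the values of that class rest on few UMIs each.

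The mitochondrial ribosome, whose nuclear-encoded proteins carry MRPL and MRPS symbols, did not follow the cytoplasmic ribosome between the libraries. Of 71 measured MRPL and MRPS genes 9 had the higher level in the ETV6-RUNX1 library, with a median log2 ratio of -0.08, where 36.2% of all measured genes did. Ribosome biogenesis genes had 2 of 41 higher and a median of -0.13, and the translation factors with TOP messages 13 of 22 and a median of 0.00. No gene of these 3 lists reached 1.5-fold. NPM1, a nucleolar chaperone on the translation factor list, was at 2230 and 2469 CPM (log2 ratio -0.15).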
